A study of Homo sapiens with 6 samples.

Results

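The nuclear receptor genes described here are 45 autosomal genes of the human nuclear receptor superfamily, taken from a fixed list of gene symbols, among 18973 autosomal protein-coding genes of a RefSeq table of GRCh38.p14 (hg38). All 45 symbols were found in that table. Each gene was examined over its whole span plus 10 kb on either side, called its locus below. The locus was divided into the ends (1 kb either side of each gene end), the body (the rest of the span) and the flanks (the outer sequence beyond the end windows, up to 10 kb). Membership follows the gene family, but the family was chosen by the AcNEIL1 peaks already known at NR5A1, so the peak values below are a description and no test was made on them.

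The study mapped acetylated NEIL1 (AcNEIL1) by ChIP-seq in HCT116, an established human colorectal adenocarcinoma cell line, growing exponentially and given no treatment. NEIL1 is a DNA glycosylase that starts base excision repair by removing oxidised bases. There were 3 libraries immunoprecipitated with a custom rabbit antibody to AcNEIL1 and 3 libraries of input DNA set aside before the immunoprecipitation, all from the same cell line. The authors called peaks in each ChIP library against the input of the same number, and a value below is given for replicates 1, 2 and 3 in that order.

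The lists held 39655, 59750 and 49482 autosomal peaks, from 31921768, 28814429 and 35222701 ChIP tags and 32877739, 37772127 and 33606858 input tags. Replicate 2 thus had the longest list, the fewest ChIP tags and the deepest input, and its peaks were also the widest, with a median of 479 bp against 401 bp in replicate 1 and 384 bp in replicate 3. Nothing in the labels shows that the replicates are separate cultures, and every SD below may therefore reflect technical spread alone. The fold of a peak is the authors' own value, the ratio of the tag pileup to the local background at the summit, and its median was 3.42, 3.39 and 3.61 in the 3 lists.

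Nuclear receptors are transcription factors that bind short DNA elements, often as dimers, and most carry a pocket for a lipophilic ligand such as a steroid, a retinoid, thyroid hormone, vitamin D, a bile acid or a fatty acid. Ligand binding exchanges corepressors for coactivators on the receptor, while several orphan members act without a known natural ligand. In intestinal epithelium HNF4A, VDR, the PPARs, NR1H4 and NR5A2 are known regulators of differentiation, bile acid handling and lipid metabolism, whereas NR5A1 (SF-1) is best known from adrenal gland and gonad, where it drives genes of steroid production.

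The sequences before 3 transcription starts are shown because NR5A1 and NR2E3 (a photoreceptor receptor) were the only members, of the 40 with a listed promoter window, whose window had a peak in all 3 replicates, and because NR5A2 (LRH-1) is the paralog of NR5A1 and had no peak there. They are the 250 bases before each start, from RefSeq on GRCh38.p14, read 5′ to 3′ on the gene's strand, at chr9:124507400-124507649 (minus strand) for NR5A1, chr15:71810304-71810553 (plus strand) for NR2E3 and chr1:200027460-200027709 (plus strand) for NR5A2. Capitals mark matches on either strand to the E-box CACGTG, the CCAAT box, the GC box GGGCGG, the nuclear receptor hexamer AGGTCA or the NR5A-type element CAAGGNCA.
NR5A1: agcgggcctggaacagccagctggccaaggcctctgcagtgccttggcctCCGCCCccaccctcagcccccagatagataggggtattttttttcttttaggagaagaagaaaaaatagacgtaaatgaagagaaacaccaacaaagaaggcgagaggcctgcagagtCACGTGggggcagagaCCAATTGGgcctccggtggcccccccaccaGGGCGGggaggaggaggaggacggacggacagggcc
NR2E3: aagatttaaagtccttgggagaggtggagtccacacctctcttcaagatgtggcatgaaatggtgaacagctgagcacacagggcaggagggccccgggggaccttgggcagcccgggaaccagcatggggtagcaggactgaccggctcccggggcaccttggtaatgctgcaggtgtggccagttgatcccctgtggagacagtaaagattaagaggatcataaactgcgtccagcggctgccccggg
NR5A2: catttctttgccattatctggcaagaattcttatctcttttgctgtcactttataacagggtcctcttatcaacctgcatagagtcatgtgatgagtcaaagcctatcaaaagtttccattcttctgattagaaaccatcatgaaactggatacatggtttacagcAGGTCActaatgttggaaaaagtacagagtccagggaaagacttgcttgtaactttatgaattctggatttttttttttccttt

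In NR5A1 the E-box lay 82 to 77 bases before the start, a pair of overlapping CCAAT matches on opposite strands lay at 66 to 62 and 63 to 59, and GC boxes lay at 200 to 195 and 36 to 31. AcNEIL1 peaks covered 11, 250 and 250 of these 250 bases in replicates 1, 2 and 3, and they covered all 250 bases of the NR2E3 sequence in each replicate. The NR2E3 sequence held none of the 5 motifs, and the NR5A2 sequence held AGGTCA at 84 to 79 bases before its start. GC content was 59.6% in NR5A1, 58.8% in NR2E3 and 36% in NR5A2. Over the 95 windows of 250 bases listed for 40 members, CACGTG was present in 6.32%, against 7.34% of 21156 windows of all autosomal protein-coding genes. The shares were 34.7% of member windows against 32.4% of all windows for CCAAT, 48.4% against 54.0% for GGGCGG, 14.7% against 10.4% for AGGTCA and 5.26% against 3.84% for CAAGGNCA. These matches describe letters only, and NR4A2, NR0B2, HNF4G, VDR and NR2F6 had no entry in the sequence table.

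At NR5A1 the AcNEIL1 peaks formed an almost continuous block over the 5′ side of the gene in every replicate. The gene spans chr9:124481236-124507399 on the minus strand, 26.164 kb. Its locus was overlapped by 22, 16 and 22 peaks, and peaks covered 55.7%, 80.9% and 54.3% of the gene span (63.6% ± 15.0, SD, n = 3). That was the highest cover of any of the 45 members, the 7th highest among 5408 autosomal protein-coding genes of 15 to 45 kb, and rank 176 of all 18973. From the start to the midpoint of the gene the cover was 87.0%, 99.3% and 80.9%, and from the midpoint to the 3′ end it was 24.3%, 62.4% and 27.7%. The 5′ side was thus the more covered side in each library.

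The strongest NR5A1 peak of each replicate had a fold of 6.11, 8.19 and 7.12, with its summit 3.01, 4.07 and 5.24 kb inside the 5′ end. These peaks ranked 199th, 46th and 59th by fold in their lists. All 3 belonged to 1 merged region, chr9:124492944-124504798, whose fold was 7.14 ± 1.04 (SD, n = 3). It was the strongest region shared by all replicates at any member. Replicate 2 called 1 peak of 11635 bp across this stretch, where replicates 1 and 3 called several shorter ones, with longest peaks at the locus of 4817 and 3089 bp. The number of peaks is therefore a poor measure of extent here, since the library with the fewest NR5A1 peaks had the most bases covered.

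Base by base, 10917 of the 26164 bases of NR5A1 (41.7%) lay in peaks of all 3 replicates, 22.8% in exactly 2, 20.1% in 1 and 15.4% in none. The longest stretches common to all 3 ran from 2.80 to 4.80 kb (2008 bp) and from 0.528 to 2.42 kb (1894 bp) inside the 5′ end. The longest stretch of the gene with no peak in any replicate was 3665 bp, between 21.97 and 25.63 kb from the 5′ end. The flanks were unequal as well. Peaks of all 3 replicates covered 30.7% of the 10 kb beyond the 3′ end, against 2.76% of the 10 kb upstream of the 5′ end.

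**Figure D1:**
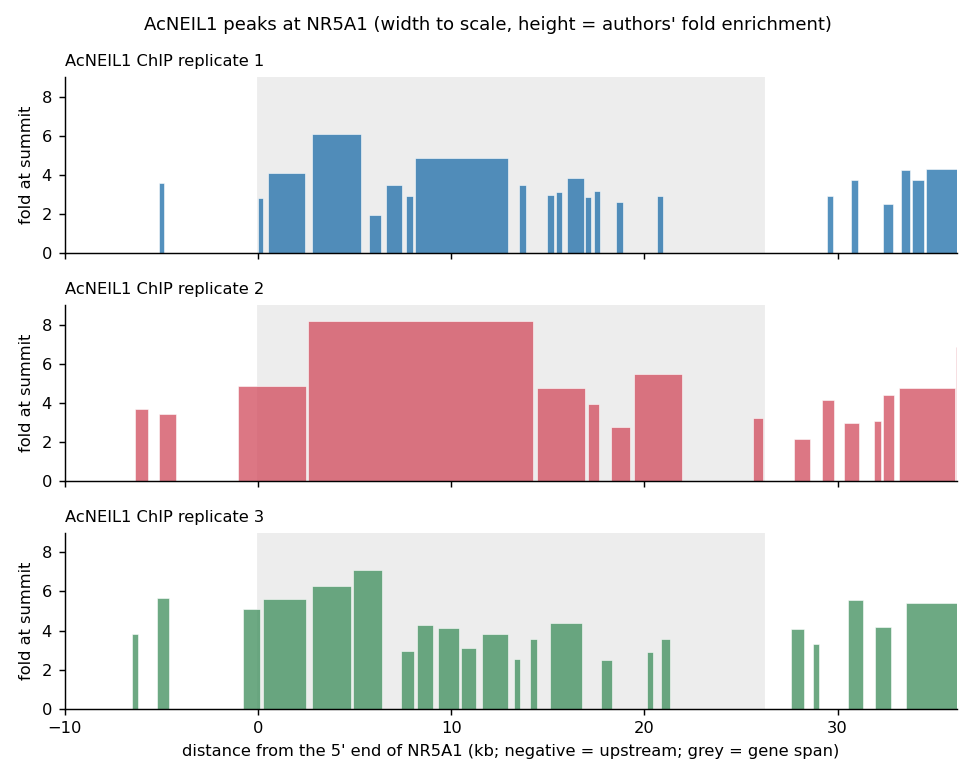
AcNEIL1 peaks at the NR5A1 locus in each of the 3 ChIP replicates, with distance from the 5′ end in kb on the horizontal axis, the authors' fold as bar height and the peak width to scale; grey marks the gene. The strongest peaks (fold 6.11, 8.19 and 7.12) sit between 3.01 and 5.24 kb inside the 5′ end, and replicate 2 has 1 peak of 11635 bp there.

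The 5′ end window of NR5A1 was overlapped by a peak in all 3 replicates, with a highest fold of 4.10, 4.85 and 5.60. All 3 values came from peaks that reached into the window but had their summits beyond it, 2.25, 1.04 and 1.84 kb inside the gene. Peaks with their summit within the 5′ window were weaker or missing. Replicate 1 had one of fold 2.80 and replicate 3 one of fold 5.10, at −0.382 kb from the start, and replicate 2 had none. The 3′ end window had a peak in replicate 2 alone. The median local background at NR5A1 peaks, in units of the pileup, was 5.98, 7.40 and 5.23, against 4.94, 5.34 and 4.48 over the whole lists. The local background was thus higher at NR5A1 in each library, and its part in the peak calls was not tested.

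The block ended within a few kb of the 5′ end and resumed past the 3′ end. In bins of 10 kb from the 5′ end into the gene, mean cover was 88.1%, 66.6% and 21.0%, then 68.9% between 30 and 40 kb, and it was 15.2% in the 10 kb upstream. The bin beyond the 3′ end lies at ADGRD2, an adhesion G protein-coupled receptor gene 2656 bp from NR5A1, whose span was covered at 32.1% ± 9.0 (SD, n = 3). On the other side NR6A1 (GCNF, a germ cell orphan receptor), whose locus ends just inside the 10 kb limit because a gap of 9875 bp separates the genes, was covered at only 0.0857% of its span. The proteasome subunit gene PSMB7, 65794 bp beyond the 3′ end, had no peak. Over the locus, NR5A1 held 0.419 ± 0.082 summits per kb (SD, n = 3), 9.01 times the density over the rest of the 1 Mb centred on it.

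**Figure D2:**
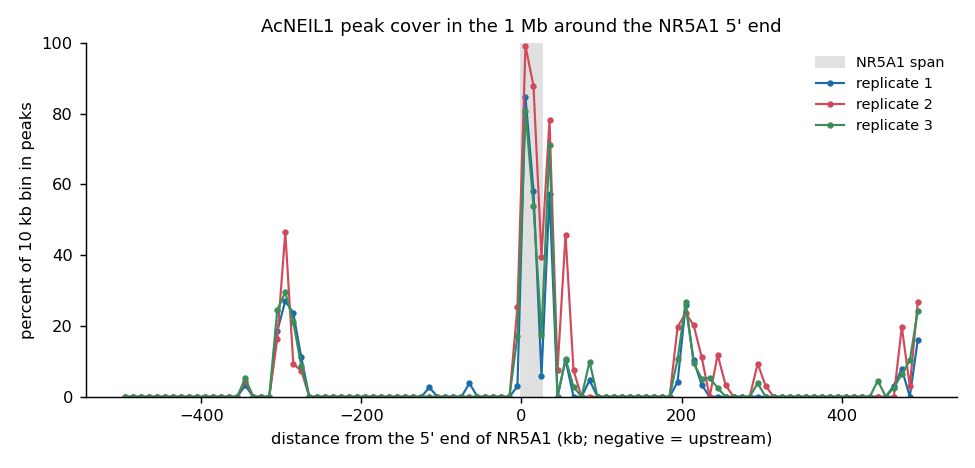
Percent of each 10 kb bin covered by AcNEIL1 peaks, for the 3 ChIP replicates, against distance from the NR5A1 5′ end in kb; grey marks the gene span. Cover averages 88.1% in the bin just inside the gene, 66.6% at 10 to 20 kb and 68.9% at 30 to 40 kb. The highest bin away from the gene, 290 to 300 kb upstream, averages 34.4%.

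For genes alike in density, body summits per kb were compared over the 3 replicates among 1178 autosomal protein-coding genes of 15 to 45 kb with body peaks in every replicate. NR5A1 had 0.469 body summits per kb, against a median of 0.187 over these genes, and 58 of them were higher. The 5 nearest to it in density were BLACAT1, DOK7, SH2D6, KLC4 and DOK4, at 0.470, 0.470, 0.470, 0.470 and 0.473 summits per kb. Of these DOK7 had the highest body cover, 47.1%. Body cover at NR5A1 was 64.5%. Genes outside the family thus had a similar density of summits, but the 5 nearest were less covered than NR5A1.

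Over the family, AcNEIL1 peaks were found at many loci but at few gene ends. A locus peak was present in all 3 replicates at 25 of 45 members (55.6%), where 35.3% of all autosomal protein-coding genes had one, and 9 members (20%) had no peak in any replicate, against 41.5% of all genes. Body peaks in all 3 replicates occurred at 19 members (42.2%), against 19.6% of all genes, and flank peaks likewise at 19 members (42.2%), against 22.9%. Gene-end peaks in all 3 replicates occurred at 4 members (8.89%), against 9.38% of all genes, a share near the background. No gene-end peak was called in any replicate at 32 members (71.1%), against 73.7% of all genes. With peaks in at least 2 replicates counted, 29 members had a locus peak, against 46.1% of all genes, 7 a gene-end peak, against 15.8%, 22 a body peak, against 26.7%, and 20 a flank peak, against 33.3%. The flanks of 19 members (42.2%) were without a peak, against 54.1% of all genes. NR5A1, whose known peaks led to the choice of the family, is in each count of members with peaks in all 3 replicates. Leaving out the 4 members with overlapping loci (NR5A1, NR6A1, THRA and NR1D1) gave 21 of 41 with a locus peak in all 3 replicates. A gene-end peak was then present at 3 and a body peak at 17. The members are longer genes, with a median span of 53.4 kb against 24.8 kb over all genes, so that longer bodies and loci were searched at them. The flanks have the same length at every gene. Over all genes, body peaks in all 3 replicates rose from 14.5% under 15 kb to 26.2% at 150 kb or more. The locus share fell from 38.8% to 30.4% and the flank share from 30.9% to 10.1% over the same spans.

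Stricter peak lists lowered the counts in members and in all genes alike. With peaks of −log10 q of 5 or more alone, all 3 replicates had a locus peak at 14 of 45 members, against 17.9% of all genes, a gene-end peak at 2, against 3.6%, and a body peak at 10, against 9.31%. Among the 5000 peaks of highest fold in each list the counts were 4 of 45 members with a locus peak, against 6.26% of all genes, 0 with a gene-end peak, which allows a share of up to 6.67%, against 0.743%, and 3 with a body peak, against 3.19%. With end windows widened from 1000 to 5000 bp, 18 of 45 members had an end peak in all replicates, against 23.4% of all genes, so the share near the background held for the narrower window. A body peak was then present at 16 members, against 12.8% of all genes.

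**Figure D3:**
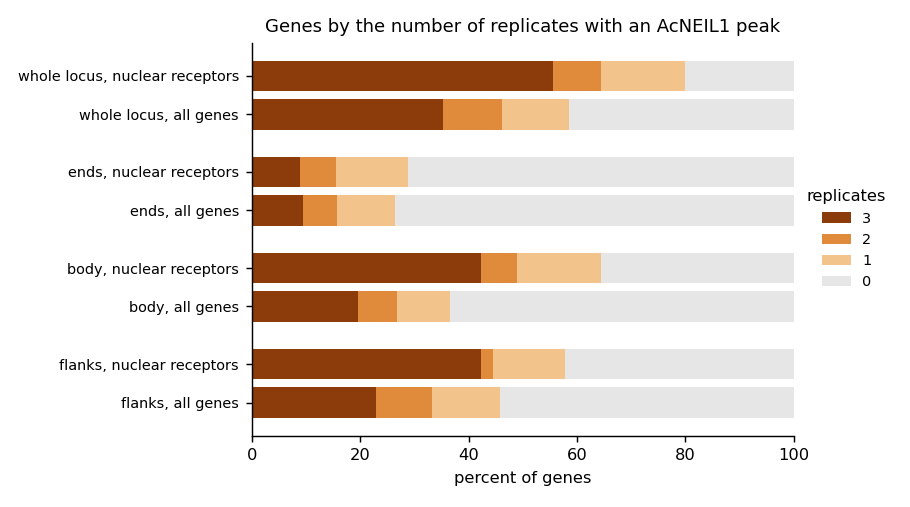
Percent of genes with an AcNEIL1 peak in 3, 2, 1 or 0 replicates, for the 45 nuclear receptor genes above all 18973 autosomal protein-coding genes, by part of the locus. The share with peaks in all 3 is 55.6% against 35.3% for the whole locus, 8.89% against 9.38% for gene ends and 42.2% against 19.6% for the body. NR5A1 is counted among the 45.

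Counting summits per kb allows for the length searched, but the density itself depended on span. Over all genes the body density was 0.0905 under 15 kb and 0.0125 at 150 kb or more. Pooled over the members, the flanks held 0.0742, 0.0934 and 0.0729 summits per kb, against 0.0306, 0.0440 and 0.0399 over all genes. The ratio was 2.12 ± 0.297 (SD, n = 3), and every member value lay above every value of all genes. The flanks compared are not alike, however. Flank bases inside the end or body of another gene of the same set were left out. Over all genes this removed neighbouring protein-coding genes, while member flanks kept neighbours outside the family. The part of this in the ratio was not tested. Gene by gene, with whole flanks kept, the median flank density was 0.0185 in members and 0 over all genes. In the body the densities were 0.0236 ± 0.0051 in members and 0.0230 ± 0.0049 over all genes (SD, n = 3), a ratio of 1.03 ± 0.018 that was slightly above 1 in each replicate (1.01, 1.02 and 1.04). At the ends they were 0.0502 ± 0.0056 in members and 0.0553 ± 0.0100 over all genes (SD, n = 3), from only 10, 8 and 9 member summits, and the ratio of 0.941 ± 0.272 lay on both sides of 1, within the spread between replicates. With NR5A1 left out, the flank density was 0.0745 and its ratio to all genes 1.97 ± 0.26 (SD, n = 3). The body ratio then turned to below 1 in each replicate, at 0.881, 0.990 and 0.945, so its direction rested on NR5A1. Counting every overlapping peak in place of summits gave end densities of 0.0781 ± 0.0056 in members and 0.0720 ± 0.0164 over all genes (SD, n = 3), and the ratio again lay on both sides of 1, at 1.27, 0.872 and 1.21.

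**Figure D4:**
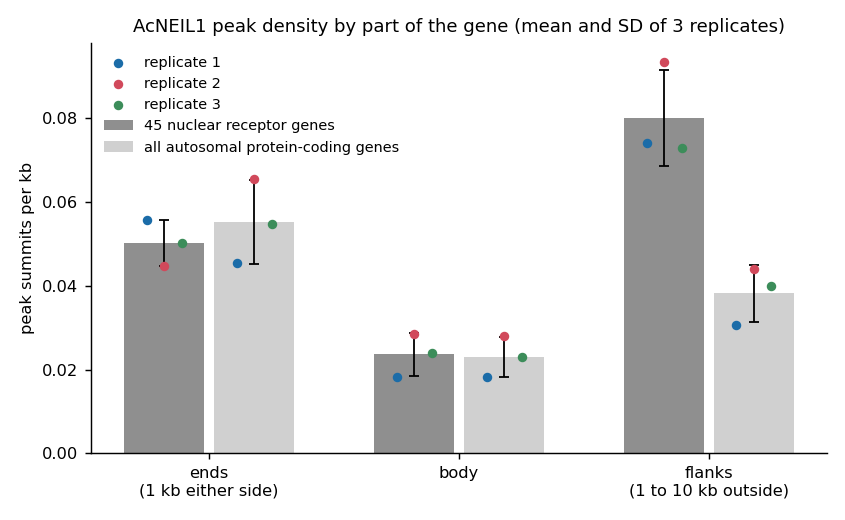
AcNEIL1 peak summits per kb in the ends, body and flanks, pooled over the 45 nuclear receptor genes (dark bars) and over all autosomal protein-coding genes (light bars). Bars are means of 3 replicates, error bars are SD and points are replicates. The flank densities of members (0.0729 to 0.0934) all exceed those of all genes (0.0306 to 0.0440). The flanks of all genes leave out bases inside other protein-coding genes, while member flanks keep neighbours outside the family.

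The similar body densities covered differences in opposite directions at different gene lengths. The 11 members of 15 to 50 kb held 0.138 ± 0.0126 body summits per kb, against 0.0462 ± 0.0100 in all genes of that span (SD, n = 3), and 0.114 ± 0.028 with NR5A1 left out. The 12 members of 50 to 150 kb held 0.0566 ± 0.0160, against 0.0266 ± 0.0058 (SD, n = 3), and RXRA alone gave 25, 45 and 40 of their 46, 83 and 69 body summits. In the 11 members of 150 kb or more the body density was 0.00473 ± 0.00155, against 0.0125 ± 0.0027 in all such genes (SD, n = 3). These long genes made up 4297.838 of the 5886.307 kb of member body sequence. ESRRB alone gave 9, 24 and 16 of their 13, 26 and 22 body summits. Their median span was 367 kb, against 247 kb in all genes of 150 kb or more, and the part of span in this difference was not tested. The 11 members under 15 kb had 0.0599 ± 0.0148 body summits per kb, against 0.0905 ± 0.0176 in all genes of that span (SD, n = 3). The member value rests on only 4, 6 and 4 summits, and the replicate values of members and all genes overlap. The flanks of these members held 0.125 ± 0.028 against 0.0567 ± 0.0112. The flanks of all genes of that span again leave out bases inside other genes of the set.

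A locus peak in all 3 replicates was found at 8 of 11 members under 15 kb, 7 of 11 of 15 to 50 kb, 7 of 12 of 50 to 150 kb and 3 of 11 of 150 kb or more. Over all genes of the same spans the shares were 38.8%, 36.05%, 30.7% and 30.4%. The long members with such peaks were ESRRB, NR6A1 and THRB. Per locus, the median density was 0.0319 summits per kb in members, against 0.00766 over all genes, and 29 members lay above the median of all genes and 16 below it.

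**Figure D5:**
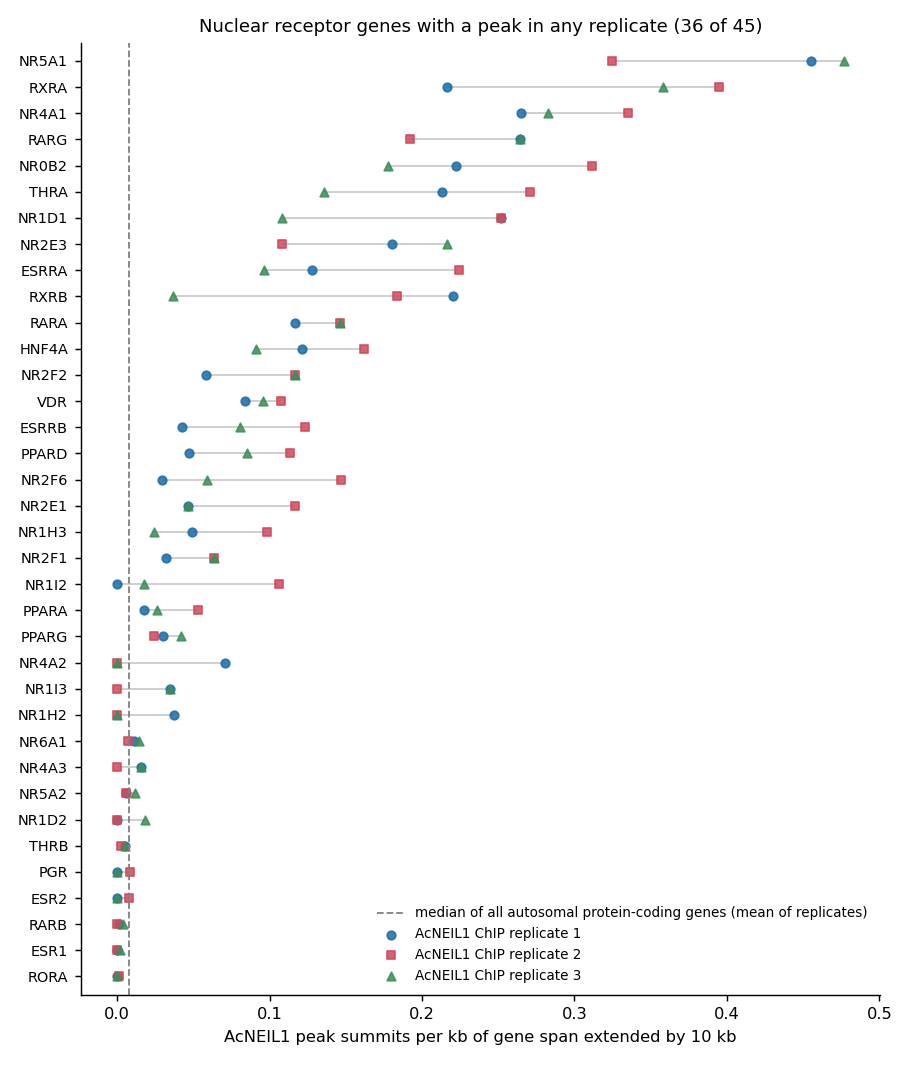
AcNEIL1 peak summits per kb of locus in each of the 3 ChIP replicates for the 36 of 45 nuclear receptor genes with a peak in any replicate, ordered by mean; the dashed line is the median of all autosomal protein-coding genes (0.00766). NR5A1, RXRA and NR4A1 lie highest, with means of 0.419, 0.323 and 0.294.

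Among the retinoid X receptors, the shared dimer partners of many other receptors, RXRA carried 29, 53 and 48 summits in its locus, 0.323 ± 0.0944 per kb (SD, n = 3). Replicate 1 was the lowest, at 0.216 per kb, and 97.8% of all genes had a lower mean. None of the RXRA peaks touched a gene end, and 25, 45 and 40 of the summits lay in the body. Its strongest regions shared by all replicates were upstream, at chr9:134318284-134323363 (fold 5.50 ± 0.29), and inside the gene, at chr9:134369285-134377859 (5.13 ± 0.69) and chr9:134380476-134388050 (5.11 ± 0.47; SD, n = 3). RXRB had 6, 5 and 1 summits, all of them in the flanks, with 1 region shared by all replicates at chr6:33188626-33192106. RXRG had no peak in any replicate, so the 3 members of this trio spanned almost the whole range of the family. The density of 0.323 per kb at RXRA was 1.67 times that of the rest of the surrounding 1 Mb, a rich neighbourhood of 0.193 summits per kb.

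Receptors for retinoic acid also differed. RARG had 11, 8 and 11 summits, most of them in the body, and its strongest shared region, at chr12:53228472-53230718, had folds of 4.35, 4.93 and 4.84. RARA had 8, 10 and 10 summits. A shared region that ran from its 5′ end into the body, chr17:40309068-40311727, had folds of 3.65, 3.63 and 4.84. Peaks overlapping the RARA end windows had lower highest folds, 3.25, 3.51 and 2.39. RARB, with a span of 768.612 kb, had 1, 0 and 3 summits. RARG and RARA thus had similar counts in every replicate, and RARB had fewer over a far longer span.

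The thyroid hormone receptors split the same way. THRA had 11, 14 and 7 summits in its locus (0.206 ± 0.068 per kb), and THRB had 2, 1 and 2 (0.00418 ± 0.00145 per kb; SD, n = 3). NR1D1 (REV-ERB alpha, a repressor in the circadian clock) lies tail to tail with THRA, and the spans overlap by 1075 bp. Its 7, 7 and 3 summits had no body peak among them, and 5, 3 and 1 of the peaks at NR1D1 were also counted at THRA. NR1D2, its paralog, had 1 summit, in replicate 3. Of the ROR receptors, which oppose the REV-ERBs at shared elements, RORA had 1 summit in replicate 2 and RORB had no peak.

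Lipid and vitamin sensors were mostly of moderate density. VDR, the vitamin D receptor, had 7, 9 and 8 summits, and its strongest shared region, in a flank at chr12:47832095-47834672, had folds of 5.32, 5.998 and 3.46. PPARD had 5, 12 and 9 summits, PPARG 5, 4 and 7, and PPARA 2, 6 and 3. PPARA was sparse for its surroundings, and its 0.0324 summits per kb were 0.182 times the density of the rest of the 1 Mb centred on it. The liver X receptors are oxysterol sensors; NR1H3 had 2, 4 and 1 summits, all in the body, and NR1H2 had 1 summit, in replicate 1. NR1H4 (FXR, the bile acid receptor) had no peak in any replicate. Among the xenobiotic receptors, NR1I2 (PXR) had 0, 6 and 1 summits and NR1I3 (CAR) 1, 0 and 1. The order of these receptors is not resolved where the replicate counts overlap, as they do for PPARD and PPARG.

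HNF4A, a master regulator of hepatic and intestinal epithelial identity, had 12, 16 and 9 summits, of which 11, 16 and 9 lay in the body and none in the flanks. Its strongest shared region, chr20:44412214-44414952, had folds of 5.90, 4.06 and 4.50. A weaker one, chr20:44400519-44401807 (fold 3.73 ± 0.51, SD, n = 3), spanned an internal transcription start that RefSeq places at base 44401239. The promoter window of that start had a peak in replicates 2 and 3 and not in replicate 1, and the window of the first start had none in any replicate. HNF4G, its paralog, had no peak.

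The COUP-TF receptors, orphan regulators of development, are short genes with low peak counts but not low densities. NR2F2 had 2, 4 and 4 summits, NR2F1 had 1, 2 and 2 and NR2F6 had 1, 5 and 2. Their mean densities were 0.0974, 0.0531 and 0.0783 summits per kb of locus, against a median of 0.0319 in members. NR2F2 had 20.2 times and NR2F1 14.0 times the density of the rest of the surrounding 1 Mb, where only 0.00483 and 0.00379 summits per kb were found. NR2E1 (TLX, a neural stem cell receptor) was similar, with 2, 5 and 2 summits and 28.8 times the surrounding density. Such ratios rest on counts of 1 to 5 summits per replicate. NR2E3, its photoreceptor relative, had 5, 3 and 6 summits, and 1 shared region, chr15:71807086-71812847, ran across its 5′ end with folds of 3.34, 4.92 and 4.28. The testicular receptors NR2C1 and NR2C2 had no peak in any replicate.

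Steroid receptors had few peaks. The glucocorticoid receptor NR3C1 and the mineralocorticoid receptor NR3C2 had none, and the oestrogen receptors ESR1 and ESR2 and the progesterone receptor PGR had 1 summit each, in 1 replicate, while 41.5% of all genes had no locus peak in any replicate. The estrogen-related orphan receptors, which include regulators of energy metabolism, were unlike each other. ESRRA had 4, 7 and 3 summits, almost all in the flanks, at the same density as its surroundings (0.149 and 0.150 per kb). ESRRB had 9, 26 and 17 summits, nearly all in the body, and ESRRG, a gene of 634.457 kb, had none. Locus peaks in all replicates were thus present at 2 of the 8 members of this subfamily (25%), against 35.3% of all genes. The subfamily has a median span of 174 kb, and the share over all genes of 150 kb or more was 30.4%.

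The NR4A receptors are immediate early orphan receptors. NR4A1 had 15, 19 and 16 summits (0.294 ± 0.0367 per kb, SD, n = 3) and 8 regions shared by all replicates. The strongest of these, chr12:52041545-52046909, lay in the body and had folds of 4.24, 4.70 and 4.51. NR4A2 had 2, 0 and 0 summits and NR4A3 had 1, 0 and 1. NR4A1 was therefore the densest of the NR4A receptors in each replicate. NR5A2, a known intestinal receptor and the paralog of NR5A1, had 1, 1 and 2 summits over 149.706 kb, with a highest fold of 3.08 ± 0.256 against 7.14 ± 1.04 at NR5A1 (SD, n = 3).

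NR0B2 (SHP) lacks a DNA-binding domain and represses other receptors, NR5A2 among them. It had 5, 7 and 4 summits around a gene of only 2.487 kb, and peaks covered 45.7%, 75.8% and 39.5% of the span. Its strongest shared region, chr1:26910047-26911814, lay over a gene end with folds of 4.35, 5.29 and 3.67. NR6A1 had peaks in all replicates through its flank with NR5A1, since 2, 3 and 3 of the 4, 3 and 4 peaks at its locus were also counted at NR5A1.

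Gene-end peaks in all 3 replicates were found at NR5A1 (fold 4.85 ± 0.745), NR0B2 (4.62 ± 0.582), NR2E3 (4.13 ± 0.791) and RARA (3.05 ± 0.586; SD, n = 3). RARG and NR2E1 had a 5′ end peak in 2 replicates, and NR4A1 a 3′ end peak in 2. Of the 40 members with a known strand, 3 (7.5%) had a 5′ end peak in all replicates, against 4.77% of 15101 genes, and 0 of 40 had a 3′ end peak in all replicates, which allows a share of up to 7.5%, against 4.41%. In promoter windows from 250 bases before to 50 after a start, 2 of 95 member windows had a peak in all replicates, against 1.8% of 21156 windows of all genes. The 250 bases before the start held a median of 7.5 CpG dinucleotides in the 12 member windows with a peak in any replicate and 12 in the 83 without one, with median GC contents of 59.2% with and 58.4% without a peak. Over all genes the medians were 9 CpG with and 17 without a peak.

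Around the 5′ ends of the 40 stranded members, mean peak cover was 5.81% in the first 500 bp of the gene, 9.53% at 3000 to 3500 bp inside and 8.81% at 3000 to 3500 bp upstream. Over all genes the values were 3.80%, 3.75% and 3.22%. With NR5A1 left out the member values were 3.97%, 7.21% and 9.04%, so that cover in the first 500 bp was then near that of all genes. In each replicate, cover in members was lower in the first of these bins than in the other two, which were picked after the profile was seen.

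Replicates often placed their peaks apart within a locus. Merging peaks over replicates gave 332 regions in member loci, of which 50 (15.1%) held a peak of every replicate, against 13.3% of merged regions over the autosomes. Without NR5A1 the share was 41 of 318 (12.9%). At least 1 such shared region was present at 17 of 45 members, against 26.4% of all genes. NR5A1 had 9, RXRA and NR4A1 had 8 each, RARG and THRA 4 each and HNF4A 3. PPARG, PPARD, THRB, NR5A2, NR2F1, NR2F6, NR2E1 and NR1H3 had peaks in all replicates but no merged region with a peak of each. These 8 were 32% of the 25 members with peaks in every replicate, against 25.8% of 6704 such genes.

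As a family of transcription factors for comparison, 88 autosomal FOX, SOX, PAX and TBX genes had a similar share of loci with peaks in all replicates (45 of 88, 51.1%, where all genes had 35.3%) but more gene-end peaks. The ends held 0.0502 ± 0.0056 summits per kb in nuclear receptors and 0.144 ± 0.0044 in the other factors (SD, n = 3), and no replicate values overlapped. The flanks held 0.0801 ± 0.0115 in nuclear receptors and 0.0911 ± 0.0162 in the other factors (SD, n = 3), within the replicate spread. The other factors are shorter genes, with a median span of 8.43 kb, and the part of length in this difference was not tested.

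Genes that act with the receptors gave differing counts. Of 25 coregulators, which carry out activation or repression for bound receptors, none had a gene-end peak in all replicates, which allows a share of up to 12% and so includes the 9.38% of all genes. A locus peak in all replicates was present at 9 (36%), near the 35.3% of all genes. Of 23 genes of steroid production and gonadal signalling known as NR5A1 targets, 6 (26.1%) had a gene-end peak in all replicates, against the 9.38% of all genes, and 12 (52.2%) a locus peak, against 35.3%. The 6 with gene-end peaks were CYP21A2, INHA, AMHR2, CYP17A1, CYP11A1 and AMH. The fold was 5.43 ± 0.32 at INHA, a subunit of the hormone inhibin, and 3.94 ± 0.29 at CYP17A1 and 3.94 ± 0.64 at CYP11A1, cytochromes P450 of steroid synthesis (SD, n = 3). The value at CYP21A2, 5.84 ± 1.10, is uncertain because a near-identical pseudogene lies beside it. The 23 genes have a median span of 9.61 kb, and all genes under 15 kb had gene-end peaks in all replicates at 14.1%.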

How the data were processed

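Chromatin of HCT116 cells was immunoprecipitated with an antibody against AcNEIL1, as the labels' protocols describe, in 3 ChIP libraries with 3 inputs. Peaks were called with MACS 2.1.1.20160309 in hg38, per the file headers, for each ChIP library against the input of the same number, with a q-value cutoff of 0.05 and at most 2 tags per position. Trim Galore, FastQC, cutadapt, Bowtie2, SAMtools and bedtools are listed in the submitters' processing notes, with no versions. The deposited signal is the pileup at the summit. In replicate 3 it takes fractional values (at most 42.94 at NR5A1), so it is not a plain tag count there. The fold is the authors' ratio of pileup to local background with 1 added to each, and the caller's p and q were deposited as −log10. Fold was used only to describe and rank peaks within a list. The inputs entered through these tables only. No counts outside peaks are given, so a gene with no peak is one where none passed the cutoff at this depth.

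A gene had a peak in a replicate if a peak overlapped the part by at least 1 bp. Densities counted summits over the union of the parts, with the end windows at 1000 bp and flanks of 10 kb. A base in several parts of a gene set was counted once, as end before body before flank. The gene table gives no exons, so no exon or intron class was made, and strand came from the RefSeq promoter table. Rows of 676 genes on other scaffolds were left out. The local background was recovered from pileup and fold. Peaks of the replicates were merged at an overlap of 1 bp, and the fold of a merged region is that of its strongest peak in each replicate. Python 3.11.15, numpy 2.4.6 and pandas 2.3.3 were used. The counting was tested on simulated data.

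There was 1 condition, so values are means and SD over replicates with no test. The members, NR5A1 and the gene lists were chosen with earlier results of these data known, and shares among all genes are given for comparison. Where a count was 0, the share it allows is 3 divided by the number of genes. That limit treats the genes as independent draws, which chosen lists are not, so it is only a rough guide. Members with a gene-end or locus peak in all replicates, the 5 densest and those without a peak were named by rule, as were list genes with gene-end peaks in all replicates. The alternatives were stricter peaks (−log10 q of 5 or more, or the 5000 of highest fold), lists of equal length, each replicate left out, summits in place of overlaps, other end windows and flanks, and members with overlapping loci left out.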

Additional observations from a re-analysis of the deposited data

How the results depend on the processing

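No paired analysis was possible because the inputs, which share replicate numbers with the ChIP libraries, entered only through the ChIP peak tables. As reported, members held 0.0308 summits per kb of locus, with peaks in all replicates at 25 loci, 4 gene ends and 19 bodies, and 20 peaks at NR5A1. With −log10 q of 5 or more these were 0.0109, 14 (17.9% of all genes), 2 (3.6%), 10 (9.31%) and 11.3. With the 5000 peaks of highest fold they were 0.00351, 4 (6.26%), 0 (0.743%), 3 (3.19%) and 5.33. Lists of equal length gave 0.0244 per kb. End windows of 5000 bp gave 18 members with gene-end peaks, against 23.4% of all genes. Flanks of 0 kb gave 0.0241 per kb and 12.3 NR5A1 peaks, and flanks of 5 kb gave 16. The wider end windows take in more bases by construction, and under the other settings fewer peaks or bases enter. Leaving out each replicate gave 0.0280 to 0.0333 per kb, 25 to 28 loci, 4 to 6 gene ends, 19 to 21 bodies and 19 to 22 NR5A1 peaks. Leaving out NR5A1, a setting chosen after seeing the data, gave 0.0284 per kb. Over these measures and alternatives 38 values stayed close to those reported, and the 15 that moved are those given above. For densities and NR5A1 peaks, close means within the SD over replicates. The margin for counts of members was wide. It took in 19 loci with flanks of 0 kb, against 25, and 6 gene ends without replicate 1, against 4. Depth limits the absences: members without a peak may hold AcNEIL1 below the caller's cutoff.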
